A study of Mus musculus with 15 samples.

Results

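Ebp, Sc5d and Dhcr7 encode a sterol isomerase, a sterol desaturase and a sterol reductase, which act in turn in the last part of cholesterol synthesis. The 3 genes were taken by their gene symbols from tables that list 54532 genes, and each symbol stood in 1 row. Levels were read in the livers of 4 control (CS) and 5 phytosterol-fed (PS) mice and in the lungs of 3 CS and 3 PS mice. These lungs came from 6 of the same animals. All were wild type male mice of the inbred strain C57BL/6J, with an age of 28 weeks in the labels, while the age at purchase and the feeding times in the study's methods add up to a higher age. The CS groups ate a purified diet, and the PS groups ate the same diet with 2% phytosterols, a mixture of plant sterols with beta-sitosterol, campesterol and stigmasterol. Each library came from the whole tissue of 1 mouse, so a lower level can mean fewer cells that use a gene or less of its RNA per cell, which cannot be told apart here.

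In mammals the endoplasmic reticulum holds most of the enzymes that build cholesterol from acetyl-CoA, and the liver is a main site of this work. Ebp, the sterol isomerase also known as emopamil binding protein, moves a double bond within the B ring of the sterol. Sc5d, a sterol desaturase, then adds another double bond to that ring. Dhcr7 reduces the bond that Ebp had placed, which leaves the single ring double bond of cholesterol. The substrate of Dhcr7 is also the precursor of vitamin D in skin. Inherited loss of these enzymes in people causes Conradi-Hünermann syndrome (EBP), lathosterolosis (SC5D) and Smith-Lemli-Opitz syndrome (DHCR7). When membrane sterols run low, SREBP transcription factors switch on most genes of the chain. NF-Y and Sp1 commonly act beside them.

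Ebp (ENSMUSG00000031168) lies at chrX:8185329-8193512 on the minus strand, Sc5d (ENSMUSG00000032018) at chr9:42251595-42264256 on the minus strand, and Dhcr7 (ENSMUSG00000058454) at chr7:143823145-143848410 on the plus strand, all in GRCm38. Their merged exons number 4, 7 and 12, and no exon of another gene overlaps them in GENCODE M21. Dhcr7 shares with transcripts of 22 other genes a stretch of at least 200 bases at 95% identity or more, and Ebp and Sc5d share none. The 250 bases before each RefSeq start (GRCm38.p6) are given here so that the letters upstream of the 3 genes can be read beside levels that did not move together. Capitals mark matches on either strand to CCAAT (the NF-Y box, ATTGG on the other strand), GGGCGG (the GC box of Sp1, CCGCCC on the other strand) and CACGTG (an E-box). The windows are chrX:8193513-8193762 (minus strand), chr9:42264301-42264550 (minus strand) and chr7:143822917-143823166 (plus strand).
Ebp: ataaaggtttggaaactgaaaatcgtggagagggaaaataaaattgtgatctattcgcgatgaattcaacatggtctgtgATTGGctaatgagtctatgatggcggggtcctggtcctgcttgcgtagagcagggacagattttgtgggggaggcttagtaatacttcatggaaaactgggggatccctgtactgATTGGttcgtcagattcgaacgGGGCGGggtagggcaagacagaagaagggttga
Sc5d: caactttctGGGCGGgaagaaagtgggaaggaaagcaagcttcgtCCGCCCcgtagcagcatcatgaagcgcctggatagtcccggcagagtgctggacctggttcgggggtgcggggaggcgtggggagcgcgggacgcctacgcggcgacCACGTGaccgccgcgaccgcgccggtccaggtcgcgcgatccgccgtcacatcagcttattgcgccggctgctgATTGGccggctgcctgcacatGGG
Dhcr7: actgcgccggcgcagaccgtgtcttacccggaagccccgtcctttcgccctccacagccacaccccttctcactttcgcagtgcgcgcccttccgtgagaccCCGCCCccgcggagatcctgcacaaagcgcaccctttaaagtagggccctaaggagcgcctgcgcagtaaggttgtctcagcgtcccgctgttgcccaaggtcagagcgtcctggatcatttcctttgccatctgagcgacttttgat
Dhcr7 has 3 RefSeq starts, and the one nearest to the gene start of the tables, 22 bases away, was used. The searched windows ran from these bases to 50 bases past the start. Ebp held 2 CCAAT boxes and 1 GC box, Sc5d 1 CCAAT box, 4 GC boxes and 1 E-box, and Dhcr7 1 GC box. The last letters of the Sc5d sequence begin a GC box that crosses its start, and its last GC box lies past the start. TCACNCCAC, a sterol regulatory element-like motif, was in none of the 3 windows. Over all 32851 RefSeq windows of this length, 37.4% held CCAAT, 35.7% GGGCGG, 7.15% CACGTG and 1.24% TCACNCCAC. Of the 18 other enzymes of the chain, 13 had a window, of which 12 held CCAAT, 12 GGGCGG and 1 TCACNCCAC. These are matches of letters in short windows and not measured sites.

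The libraries held 14410117 to 17625179 counted reads in the liver and 17934930 to 19396057 in the lung. The tissues matched their labels. Summed over 5 hepatocyte markers, the livers held 39798 to 63077 FPKM and the lungs 3.15 to 65.1, and over 5 alveolar type II markers the lungs held 14912 to 29037 FPKM and the livers at most 4.73. FPKM is the read count scaled by gene length and library size, so it lets levels of different genes be set side by side. The share of reads from mitochondrial genes was uneven, at 3.33% to 14.4% in the livers. It was highest in CS replicate 2, PS replicate 1 and PS replicate 3. In the CS lungs it was 2.94% to 3.51%, below the 3.69% to 7.28% of the PS lungs.

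Ebp was the most abundant of the 3 genes in each tissue, followed by Sc5d and then Dhcr7. This order held in 15 of 15 libraries. By mean FPKM over all livers, Ebp ranked 1, Sc5d 3 and Dhcr7 13 among the 21 enzymes of the chain. In the lungs the ranks were 2, 8 and 17. The depth was enough for each gene. Ebp held 3077 to 4015 reads per liver and 765 to 1053 per lung, and Sc5d 1762 to 3759 and 483 to 1006. Dhcr7, the scarcest, held 302 to 733 reads per liver and 174 to 251 per lung, so that counting error alone was at most 5.75% and 7.58% of its count.

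**Figure D1:**
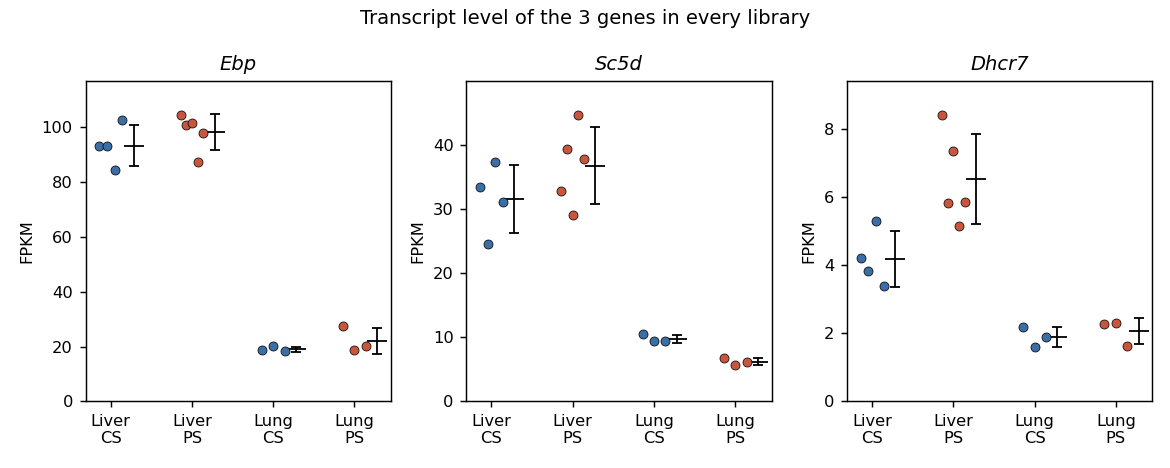
FPKM of Ebp, Sc5d and Dhcr7 in each library (points, blue for CS and red for PS), with the group mean and SD (bar) to the right. The PS lungs lie below the CS lungs for Sc5d, and the PS livers lie above the CS livers for Dhcr7 except for 1 library on each side.

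To ask whether the PS diet changed these steps in the liver, the 4 CS and 5 PS livers were set against each other in the quasi-likelihood test of edgeR, run on the counts. Dhcr7 was higher in the PS livers, while Ebp and Sc5d did not differ beyond the spread of the mice. None of the 3 genes passed an adjusted p of 0.05 over the 13195 genes tested, where 0.00758% of all genes did. At an unadjusted p of at most 0.05, 1 of 3 passed, against 7.55% of all genes in either direction and 3.96% with a higher level. DESeq2's Wald test called 0 of the 3 after adjustment. Its adjusted p for Dhcr7 was 0.139.

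Dhcr7 stood at 4.21, 3.83, 5.30 and 3.40 FPKM in the CS livers and at 8.40, 5.82, 7.34, 5.16 and 5.87 FPKM in the PS livers. The groups overlapped by 1 pair of mice only, since CS replicate 3 was above PS replicate 4. The mean was 4.18 ± 0.815 FPKM (SD, n = 4) against 6.52 ± 1.32 FPKM (SD, n = 5). On the log2 scale the PS livers were 0.65 above the CS livers (SE 0.20), or 1.57-fold with a 95% confidence interval of 1.16 to 2.13. The edgeR adjusted p was 0.406, so this difference did not pass over all genes, although only 1.86% of the genes tested had a smaller p. It was 0.54 to 0.78 when each liver was left out in turn. With the mitochondrial share as a covariate, an alternative chosen after the data were seen, it was 0.60 (edgeR adjusted p = 0.140). PS replicates 1 and 3, with mitochondrial shares of 13.3% and 9.79%, held the highest and 2nd highest Dhcr7 level. CS replicate 2, with the highest share of 14.4%, held the 2nd lowest.

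Sc5d ranged from 24.5 to 37.3 FPKM in the CS livers, with 33.4, 24.5, 37.3 and 31.0 in replicates 1 to 4. In the PS livers it was 32.9, 39.3, 29.1, 44.6 and 37.8 FPKM. The groups overlapped widely, with means of 31.6 ± 5.38 FPKM (SD, n = 4) and 36.7 ± 5.97 FPKM (SD, n = 5). The difference was 0.23 on the log2 scale (SE 0.18, 95% confidence interval -0.18 to 0.63, edgeR adjusted p = 0.855). The livers with the 3 highest mitochondrial shares held the lowest, the 4th lowest and the 2nd lowest Sc5d level of the 9. With that share as a covariate the difference was 0.29 (edgeR adjusted p = 0.309), and with 1 liver left out it ranged from 0.13 (without CS replicate 2) to 0.31 (without CS replicate 3).

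Ebp was the steadiest of the 3. It was at 93.1, 92.9, 84.2 and 103 FPKM in the CS livers and at 104, 101, 101, 87.1 and 97.7 FPKM in the PS livers. The means of 93.2 ± 7.52 FPKM (SD, n = 4) and 98.2 ± 6.62 FPKM (SD, n = 5) differed by less than either SD. The log2 difference of 0.08 (SE 0.15, edgeR adjusted p = 0.963) had a 95% confidence interval of -0.25 to 0.42, or 0.840-fold to 1.33-fold. It was 0.03 without CS replicate 3 and 0.13 without CS replicate 4, the lowest and highest of the 9 fits that left out 1 liver.

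The other enzymes of the chain differed more between the diets. All 18 were higher in the PS livers, with a median log2 difference of 1.02 (0.66 with limma on log2(FPKM + 1)), beside 0.23 for the 3 genes and -0.03 for all genes tested. In edgeR's test 12 of the 18 had an unadjusted p of at most 0.05, against 3.96% of all genes with a higher level, and 0 passed after adjustment. With DESeq2's Wald test 10 of the 18 did, against 163 of the 13195 genes (1.24%). From the highest log2 fold change of the 21 enzymes down, Dhcr7 ranked 13, Sc5d 17 and Ebp 20. Msmo1, which begins the removal of the methyl groups at carbon C4, had the smallest p of the 18 at 2.14 (SE 0.28, edgeR adjusted p = 0.0540). Nsdhl, which acts in the same demethylation, had 1.53, and Fdft1, squalene synthase, 0.97 (edgeR adjusted p = 0.0974 for each). Sqle, squalene epoxidase, stood at 1.91, and Fdps, which makes farnesyl diphosphate, at 3.23 on 1 to 31 reads per liver (edgeR adjusted p = 0.114 for each). On the log2(FPKM + 1) scale of limma, which compresses low levels, Fdps was at 0.32.

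Other gene lists were read in the same livers. Of 13 clock genes, core and output genes together, 8 were higher and 3 lower in the PS livers at an unadjusted p of at most 0.05, against 7.55% of all genes in either direction, and their summed level ranged from 37.6 to 73.1 FPKM on the CS diet and from 76.4 to 145 FPKM on the PS diet. All 5 macrophage markers were lower, 2 of them at an unadjusted p of at most 0.05, with sums of 49.0 to 82.3 FPKM and 18.4 to 56.7 FPKM. The 3 endothelial markers had lower values as well, with a median log2 difference of -0.56 and sums of 5.30 to 8.39 FPKM and 2.76 to 7.52 FPKM, 0 of them at an unadjusted p of at most 0.05. Cidec was the 1 of 4 fat cell markers tested in the liver and was lower at an unadjusted p of at most 0.05. The sums of the 4 were 12.4 to 39.9 FPKM and 1.85 to 11.6 FPKM, with Adipoq, Plin1 and Lep at 0 to 4 reads. These sums were thus mostly Cidec and are no measure of fat cells in the liver. No clock, macrophage, endothelial or fat cell gene passed the adjustment in edgeR's test. Their part in the values of Ebp, Sc5d and Dhcr7 was not tested.

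In the lung Sc5d was lower in the PS lungs, and Ebp and Dhcr7 did not differ beyond the spread of the mice. Of the 3 genes, 1 passed an adjusted p of 0.05 in edgeR's test on 16717 genes, where 9.22% of all genes passed and 4.43% passed with a lower level. This background moved widely when 1 lung was left out. The 1542 genes called became 23, 26 and 0 without CS replicates 1, 2 and 3. Without PS replicates 1, 2 and 3 they became 2949, 9 and 2256. Such a fit also has fewer mice, so a lost call need not single out the lung that was left out. Of the 1542 calls 52.0% were higher in the PS lungs. With library totals in place of TMM scaling 1358 genes were called, of which 30.3% were higher, and Sc5d passed in the same direction.

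Sc5d stood at 10.5, 9.37 and 9.47 FPKM in the CS lungs and at 6.71, 5.62 and 6.14 FPKM in the PS lungs. Every PS lung was below every CS lung, which was so for 18.7% of all genes tested. The mean fell from 9.79 ± 0.637 FPKM (SD, n = 3) to 6.15 ± 0.545 FPKM (SD, n = 3), which was -0.67 on the log2 scale (SE 0.14). The PS level was thus 1.60-fold lower, with a 95% confidence interval of 1.28-fold to 1.99-fold lower (edgeR adjusted p = 0.0322). The call was lost in 4 of the 6 fits that left out a lung. In these 4 the edgeR adjusted p was 0.111, 0.108 and 0.111 without CS replicates 1, 2 and 3 and 0.106 without PS replicate 2. The difference in these 4 fits was -0.73 to -0.61. With the mitochondrial share as a covariate, also chosen after the data were seen, it was -0.59 (edgeR adjusted p = 0.295).

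Ebp was at 18.5, 20.1 and 18.4 FPKM in the CS lungs and at 27.3, 18.7 and 20.1 FPKM in the PS lungs. Only PS replicate 1 stood above the rest. The means were 19.0 ± 0.919 FPKM (SD, n = 3) and 22.1 ± 4.62 FPKM (SD, n = 3), apart by 0.21 on the log2 scale (SE 0.17, 95% confidence interval -0.18 to 0.59, edgeR adjusted p = 0.435). Without PS replicate 1 this value was 0.03. Dhcr7 was at 2.20, 1.61 and 1.89 FPKM in the CS lungs and at 2.27, 2.31 and 1.63 FPKM in the PS lungs, which overlapped. Its log2 difference was 0.12 (SE 0.22, 95% confidence interval -0.37 to 0.61, edgeR adjusted p = 0.741). Its sign turned without CS replicate 2, where it was -0.00399, and with the mitochondrial share as a covariate, where it was -0.25.

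**Figure D2:**
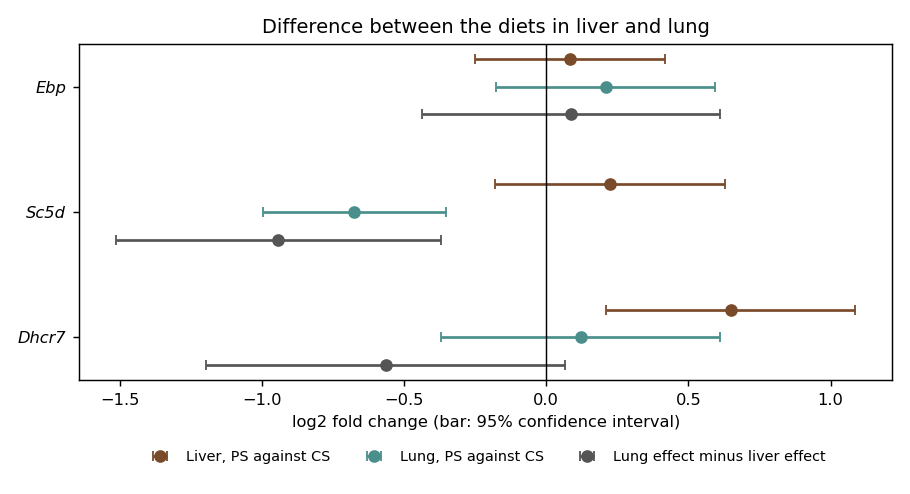
Log2 fold change of PS against CS in liver (brown) and lung (green), and the lung effect minus the liver effect (grey), for each gene, with 95% confidence intervals. The interval of Sc5d lies below 0 in the lung and that of Dhcr7 above 0 in the liver.

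Of the 18 other enzymes, 14 were lower and 4 higher in the PS lungs. Their median log2 difference was -0.36, beside 0.12 for the 3 genes and 0.01 for all genes tested. At an unadjusted p of at most 0.05, where 30.1% of all genes stood, 7 of the 18 were lower and 1 higher in edgeR's test, and after adjustment 2 were lower and 1 higher, against 9.22% of all genes. DESeq2's Wald test called 4 lower and 1 higher, against 18.5% of all genes. Ebp ranked 4 and Dhcr7 5 from the highest log2 fold change of the 21 enzymes down, and Sc5d ranked 16. Idi1, the isomerase of isopentenyl diphosphate, fell by 2.67 (SE 0.35, edgeR adjusted p = 0.0154), with 323 bases of exon shared with Gm48574 on the opposite strand. Tm7sf2, a sterol reductase of the same protein family as Dhcr7, rose by 1.38 (SE 0.31, edgeR adjusted p = 0.0368). In GENCODE M21 it shares 532 bases of exon with Vps51, which runs in the same direction. The counted gene spans chr19:6062821-6077197, beyond its end at 6068373 in that annotation. Its overlap as counted was thus not read, and its reads are uncertain. Both calls were lost in fits that left out 1 lung. That of Idi1 was lost without CS replicate 1, CS replicate 3 or PS replicate 2 (edgeR adjusted p of up to 0.0638), and that of Tm7sf2 in 5 of the 6 fits that left out a lung, all but that without PS replicate 1 (edgeR adjusted p of up to 0.129). The log2 differences stayed at -3.11 to -2.42 for Idi1 and at 1.11 to 1.65 for Tm7sf2 over these 6 fits. Values of Sqle (-0.71, edgeR adjusted p = 0.0715) and Msmo1 (-0.41, edgeR adjusted p = 0.195) did not pass. Sqle did pass in 3 of 10 alternatives that kept every lung and in 1 of the 6 fits that left out a lung (edgeR adjusted p = 0.00983).

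**Figure D3:**
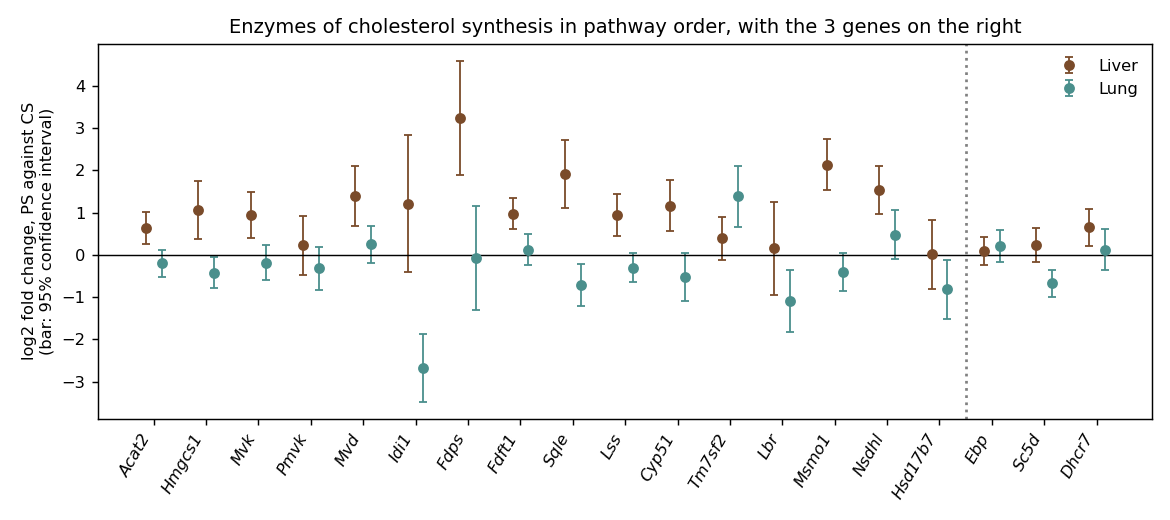
Log2 fold change of PS against CS in liver (brown) and lung (green) with 95% confidence intervals, for 16 of the 18 other enzymes in pathway order and the 3 genes on the right of the dotted line. In the liver the 3 genes stand below most other enzymes.

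Other gene lists were read in the same lungs. All 4 fat cell markers were lower in the PS lungs, 0 of them past an unadjusted p of 0.05 in edgeR's test, with sums of 7.50 to 37.6 FPKM on the CS diet and 3.95 to 22.9 FPKM on the PS diet. The sums of 5 heart and skeletal muscle markers overlapped, at 48.8 to 218 FPKM and 13.9 to 70.6 FPKM, with 2 markers higher and 3 lower. Among all genes tested in the lung, the FPKM of 36.1% did not overlap between the diets, in either direction. Of 4 plasma and B cell markers 3 were higher, 1 was lower and 0 passed the adjustment. Their sums did not overlap, at 280.3 to 511 FPKM against 568 to 752 FPKM. Those of the 5 alveolar type II markers did not overlap either, at 14912 to 15865 FPKM against 17628 to 29037 FPKM, but the list did not go one way. Sftpc had the highest log2 difference, 0.82 (edgeR adjusted p = 0.0764), and Abca3 the lowest (edgeR adjusted p = 0.0549), 3 of the 5 were lower, and the median was -0.04. Of the 42 cell type markers tested, 3 passed the adjustment in edgeR's test (7.14%), against 9.22% of all genes. They were lower, each in a list that went both ways, and were singled out after their values were seen: the macrophage marker Adgre1 (-0.81, adjusted p = 0.0448), the endothelial marker Kdr (-0.95, adjusted p = 0.0412) and the red cell marker Alas2 (-1.24, adjusted p = 0.0354). Of the 4 macrophage markers tested 2 were higher and 2 lower (median log2 difference 0.12), of the 3 endothelial markers 1 was higher and 2 lower (median -0.07), and of the 5 red cell markers 2 were higher and 3 lower (median -0.37). Of the 13 clock genes, 4 passed the adjustment in edgeR's test with a higher level and 1 with a lower one, with sums of 78.7 to 98.3 FPKM and 97.4 to 162 FPKM. The part of these lists in the level of Sc5d was not tested.

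Whether the diet acted differently in lung and liver was tested directly, in 1 fit over all 15 libraries. The change of Sc5d was lower in the lung than in the liver by 0.94 on the log2 scale, with a 95% confidence interval of -1.51 to -0.37. The edgeR adjusted p over 17696 genes was 0.281. At an unadjusted p of at most 0.05, Sc5d was 1 of the 3 genes to pass, against 10.9% of all genes in either direction and 5.4% with a lower value in the lung, and 0 of the 3 passed after adjustment, against 0.0226% of all genes. DESeq2's Wald test called this difference (-0.91, adjusted p = 0.0342). For Dhcr7 the difference was -0.56 (95% confidence interval -1.20 to 0.07, edgeR adjusted p = 0.497). For Ebp it was 0.09 (95% confidence interval -0.44 to 0.61, edgeR adjusted p = 0.939), and -0.12 without lung PS replicate 1. Of the other enzymes 17 of 18 had a lower value in the lung than in the liver, with a median difference of -1.30, beside -0.56 for the 3 genes and 0.00 for all genes. After adjustment edgeR called 1 of the 18, Msmo1 (-2.58, adjusted p = 0.0296). That call was lost with mouse as a block (-2.66, edgeR adjusted p = 0.271) and in 11 of the 15 fits that left out 1 library (edgeR adjusted p of up to 0.203), with a log2 difference of -2.92 to -2.40 over these 15 fits. DESeq2's Wald test called 9 of the 18, all lower, against 1.06% of all genes.

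Because both tissues came from the same animals, each mouse also gave a liver to lung ratio. It was taken from CPM, the read count scaled to library size, here after TMM scaling over all 15 libraries, since the FPKM of the tissues were scaled in separate tables. For Sc5d the liver was 8.11, 6.45 and 9.96 times the lung in CS replicates 1, 2 and 3. In the PS mice with lung replicates 1, 2 and 3 the ratio was 12.5, 13.8 and 16.5, above every CS mouse. For Dhcr7 the ratio was 4.89, 5.88 and 7.10 in the CS mice and 9.44, 8.46 and 9.65 in the PS mice, again without overlap. Of all 17696 genes, 6.44% had every PS mouse above every CS mouse in this ratio. For Ebp it was 12.8, 11.4 and 11.5 in the CS mice and 9.71, 14.4 and 13.0 in the PS mice, which overlapped. With 3 mice against 3 no exact permutation test of such ratios can go below p = 0.1, and none was run. With mouse as a block, in the 12 libraries of these 6 mice, the difference of the diet effects was -0.72 for Sc5d (edgeR adjusted p = 0.872), -0.54 for Dhcr7 (edgeR adjusted p = 0.872) and 0.06 for Ebp (edgeR adjusted p = 1.00). In that fit Sc5d no longer passed an unadjusted p of 0.05.

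**Figure D4:**
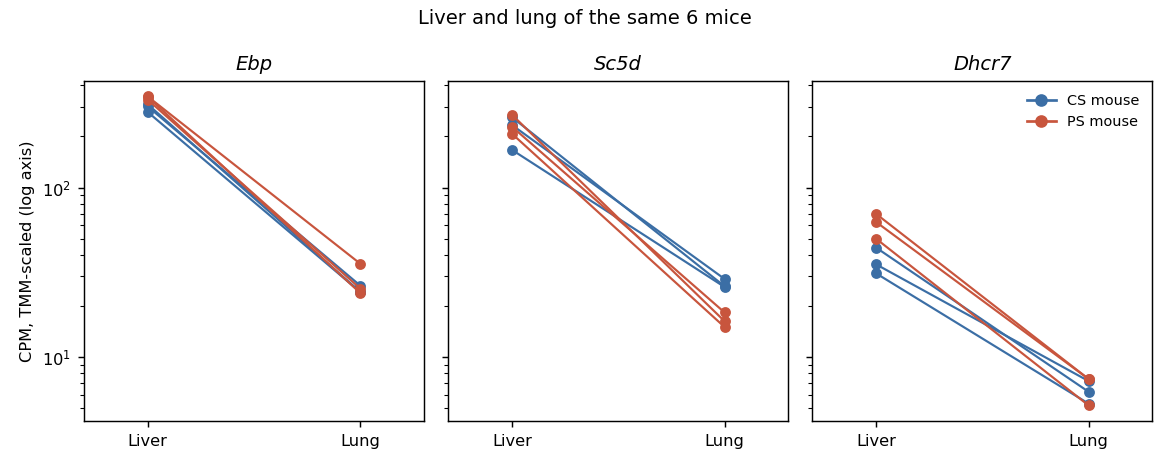
TMM-scaled CPM (log axis) of each gene in liver and lung, with a line for each of the 6 mice that gave both tissues (blue CS, red PS). For Sc5d the PS lungs sit lowest, and for Dhcr7 the PS livers sit highest.

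All 3 genes were higher in the liver than in the lung on both diets. On the CS diet the log2 difference of lung against liver was -3.63 for Ebp (standard error 0.21), -3.03 for Sc5d (0.22) and -2.48 for Dhcr7 (0.23). Thus the liver level was 12.4 times, 8.18 times and 5.58 times that of the lung with TMM scaling, and 4.75 times, 3.15 times and 2.16 times with library totals (log2 differences of -2.25, -1.65 and -1.11). All 3 passed an adjusted p of 0.05 in edgeR's test, with 9.26e-08 as the largest adjusted p. That fit does not pair the tissues of a mouse, and with mouse as a block the largest edgeR adjusted p was 8.58e-06. Of all genes, 67.1% passed and 30% passed with a lower level in the lung. On the PS diet the values were -3.55, -3.97 and -3.05, again with 3 of 3 past the adjustment against 68.7% of all genes in either direction and 30.7% in this one. The size of these differences depended on the scaling, which moved the median of all genes from 0.18 with TMM to 1.55 with library totals on the CS diet. Relative to that median, Ebp, Sc5d and Dhcr7 were at -3.81, -3.21 and -2.66 with TMM and at -3.80, -3.21 and -2.66 with library totals. The 18 other enzymes differed less on the CS diet, with a median of -0.29, where 3 were higher and 8 lower in the lung after adjustment in edgeR's test. On the PS diet their median was -2.01, and 16 of the 18 were lower and 1 higher after adjustment, so that most of them shared the direction of the 3 genes.

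The balance among the 3 enzymes was read as the ratio of their FPKM within each library, which no scaling between libraries can change. In the lung the ratio of Ebp to Sc5d was 1.76, 2.14 and 1.95 in the CS mice, against 4.08, 3.34 and 3.28 in the PS mice. The ratio of Sc5d to Dhcr7 was 4.79, 5.84 and 5.02 in the CS lungs and 2.96, 2.43 and 3.76 in the PS lungs. Neither pair of groups overlapped. Both ratios hold Sc5d, whose own levels did not overlap, and the FPKM of 36.1% of all genes tested did not overlap between the diets in the lung, in either direction. As log2 ratios, Sc5d to Ebp changed by -0.87 and Dhcr7 to Sc5d by 0.79 (two-sided exact permutation test, p = 0.1 for each, the smallest that 3 mice against 3 allow; adjusted p = 0.2 over the 6 ratios tested). Dhcr7 to Ebp differed by -0.07 (exact permutation p = 1).

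In the liver the ratio of Ebp to Dhcr7 was 22.1, 24.3, 15.9 and 30.2 in the CS mice, against 12.4, 17.3, 13.8, 16.9 and 16.6 in the PS mice. Only CS replicate 3 fell within the range of the PS livers. The log2 ratio of Dhcr7 to Ebp was -4.49 ± 0.385 (SD, n = 4) and -3.93 ± 0.212 (SD, n = 5), a difference of 0.56 (two-sided exact permutation test, p = 0.0635, adjusted p = 0.2 over the 6 ratios). The log2 ratio of Dhcr7 to Sc5d differed by 0.42 (exact permutation p = 0.190) and that of Sc5d to Ebp by 0.14 (exact permutation p = 0.524), or 0.03 (without CS replicate 2 or PS replicate 4) to 0.28 (without CS replicate 3) with 1 liver left out.

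The same ratios were also compared between the tissues of each mouse. The log2 ratio of Dhcr7 to Ebp was higher in the lung than in the liver in 6 of 6 mice, by 0.72 ± 0.459 on average (SD), and that of Dhcr7 to Sc5d in 6 of 6 mice, by 0.54 ± 0.248 (SD). The exact sign-flip p was 0.0313 for each, the smallest that 6 mice allow, and 0.0469 after adjustment over 3 ratios. Whenever 1 mouse was left out it was 0.0625 for each, and both ratios hold Dhcr7. On the CS diet 67.1% of all genes differed between the tissues after adjustment in edgeR's test. How often other pairs of genes shift in this way was not tested. For Sc5d to Ebp 4 of 6 mice were higher in the lung (exact sign-flip p = 0.438), but this test pooled the diets. For CS replicates 1 to 3 the Ebp to Sc5d ratio was 2.79, 3.79 and 2.26 in liver against 1.76, 2.14 and 1.95 in lung. In the PS mice with lung replicates 1, 2 and 3 it was 3.17, 3.48 and 2.58 against 4.08, 3.34 and 3.28. The log2 difference for Dhcr7 to Ebp, pooled likewise, ranged from 0.04 to 1.39 over the 6 mice. The sign-flip test was added after the data were seen.

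**Figure D5:**
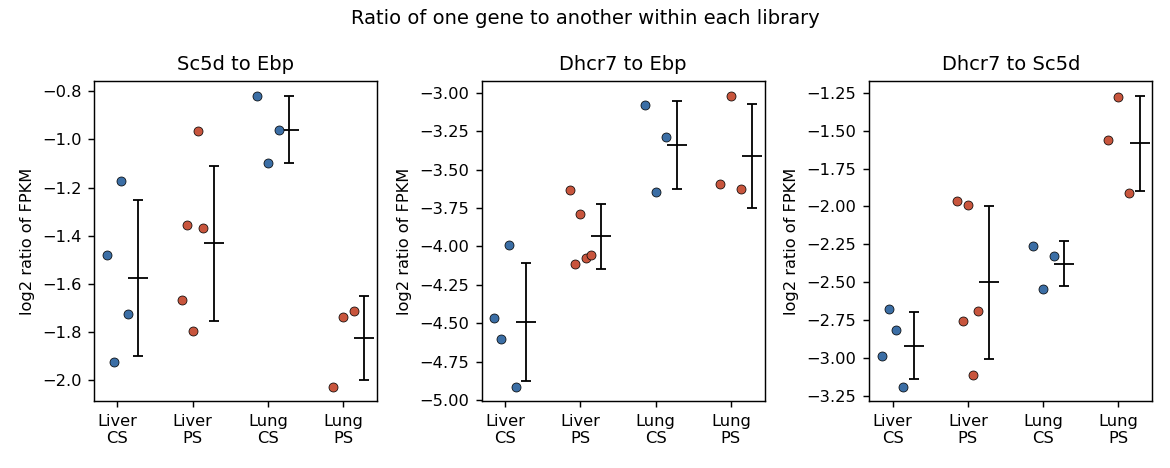
Log2 ratio of FPKM between each pair of the 3 genes, for every library (points, blue CS and red PS), with the group mean and SD (bar). The PS lungs lie below the CS lungs for Sc5d to Ebp and above them for Dhcr7 to Sc5d.

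The levels of the 3 genes were only weakly correlated from mouse to mouse. Over the 9 livers Pearson's r of log2 CPM was -0.38 for Ebp with Sc5d, 0.33 for Ebp with Dhcr7 and 0.25 for Sc5d with Dhcr7. Over the 6 lungs it was -0.33, 0.16 and -0.23. These are descriptions over points that share diet groups, depth and scaling. Among 10312 liver genes the nearest to Sc5d was Idi1 (r = 0.962), followed by Scfd1 and Slc4a1ap, and the nearest to Dhcr7 was Mmab, an enzyme of vitamin B12 metabolism (r = 0.965), followed by Zkscan7 and Tbc1d32. Ebp was nearest to Cfdp1 (r = 0.961), Tmem258 and Sap18b. Among 13210 lung genes Sc5d was nearest to Sh3bp4 (r = 0.997), Nceh1, a cholesterol ester hydrolase, and Rps6ka3. Dhcr7 was nearest to Bri3bp (r = 0.987), Fam96a and Flvcr1, a heme exporter, and Ebp to Afg1l (r = 0.98), Krt18 and Fam229b.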

How the data were processed

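RNA-seq libraries of 9 livers and 6 lungs were compared. The authors aligned cleaned paired-end reads to mm10 with HISAT2 2.0.5 and counted them per gene with featureCounts 1.5.0-p3, and they deposited raw counts. The authors also deposited FPKM values, scaled by gene length and by library within each tissue. The strand setting of the counting is not given in the sources used here. Groups, mice and replicate numbers were taken from the labels.

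Counts were fitted with edgeR 4.0.16 (R 4.3.3; TMM, filterByExpr, robust quasi-likelihood test), each tissue by itself and all 15 libraries together for contrasts between tissues. P-values were adjusted by Benjamini-Hochberg over all genes tested, at a threshold of 0.05. Ratios of FPKM were tested by exact permutation. The alternatives were DESeq2 1.42.0, limma 3.58.1 on log2(FPKM + 1) and log2(FPKM + 0.1), other scalings and filters, a GC trend correction (loess, span 0.3), replicate or mouse blocks, leaving out each library, and the mitochondrial share. Scripts were tested on simulated data. Promoters came from RefSeq (GRCm38.p6) and exons from GENCODE M21.

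By the labels each of 6 mice gave both tissues, and the deviations of its libraries correlated at r = -0.04 to 0.10. P-values of tests within a tissue or within a mouse measure the spread between mice. Without mouse as a block, those of the fit over all 15 libraries measure the spread between libraries. That fit counts both libraries of each of these 6 mice as separate. No pair of libraries within a group was as close as sampling noise allows (smallest chi-square 22.1 per degree of freedom).

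The 3 genes and all lists were chosen with earlier results of these data known. Named were the 3 genes, up to 6 other enzymes by p and those past the adjustment, family relatives, and for each of the 3 genes the 3 tested genes of highest Pearson r whose mean log2 CPM reached 1 and that had no clone or predicted-gene name. Some listed enzymes are counted with their list but not shown by themselves.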

Additional observations from a re-analysis of the deposited data

Results flagged for a closer look

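The mitochondrial share of 14.4% in liver CS replicate 2 stood apart from the other CS livers, at 3.33% to 4.45%, by a gap that passes Dixon's criterion. Of 14 groups of values checked this way, chance would mark about 1 in 20. This liver held the lowest Sc5d level of the 9. Without it the PS against CS difference on the log2 scale was 0.13 for Sc5d, 0.61 for Dhcr7 and 0.09 for Ebp, none past the adjustment in edgeR's test, and 65 genes in all were called in place of 1.

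The diet effect on Msmo1 differed between the tissues, at -2.58 on the log2 scale (lung minus liver, edgeR adjusted p = 0.0296). The call was lost with mouse as a block (-2.66, edgeR adjusted p = 0.271) and in 11 of the 15 fits that left out 1 library (edgeR adjusted p of up to 0.203), while the direction held in all of them. Msmo1 ranged from 2.26 to 4.99 FPKM in the CS livers and from 9.53 to 15.9 FPKM in the PS livers, without overlap. In the CS lungs it ranged from 5.31 to 7.01 FPKM and in the PS lungs from 3.56 to 5.63 FPKM, which overlapped.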

How the results depend on the processing

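Ebp, Sc5d and Dhcr7 in the liver and Ebp in the lung kept their direction and their side of the threshold in all alternatives run, as did the 3 lung against liver differences on each diet. With the mitochondrial share as a covariate (chosen after the data were seen) the log2 difference between diets in the lung was -0.59 for Sc5d, no longer past the threshold, -0.25 for Dhcr7, -0.17 for Nsdhl, 1.06 for Fdps and -0.16 for Ch25h, and in the liver 0.012 for Tm6sf1. With the GC trend removed, lung Ebpl was at 0.091. DESeq2's Wald test put the difference of Sc5d between the tissues, -0.91, past the threshold. The lung call of Idi1 was lost with the mitochondrial covariate, and that of Tm7sf2 with it and with limma at either pseudocount, while the log2 differences of -2.75 to -1.84 and 0.76 to 1.67 over all alternatives that kept every library held their direction. The cause of these changes was not tested. Leaving out 1 library at a time gave -0.74 to -0.61 for lung Sc5d, -0.00399 to 0.26 for lung Dhcr7, -0.12 to 0.19 for the difference of Ebp between the tissues and -0.27 to 0.056 for the lung ratio of Dhcr7 to Ebp. It gave -0.19 to 0.56 for Lbr and -0.55 to 0.43 for Tm6sf1 in the liver, and in the lung -0.00372 to 0.21 for Fdft1, -0.84 to 0.29 for Fdps and -0.32 to 0.11 for Ebpl.

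Counts over all genes moved more. The 1 gene called in the liver became 0 with library totals or a replicate block, 163 with DESeq2, 26 without a filter, 2 with at least 10 counts in every library, 6 and 4 with limma at pseudocounts of 1 and 0.1, 2 with the GC trend removed, 146 with the mitochondrial covariate, and 0 to 65 with 1 library left out (65 without CS replicate 2). The 996 genes at an unadjusted p of at most 0.05 became 1613 without a filter, 487 with the block, 2047 with the mitochondrial covariate and 699 to 1891 with 1 library left out. In the lung the 1542 calls became 3090 with DESeq2, 0 with the mitochondrial covariate and 0 to 2949 with 1 library left out. The 4 calls for the difference between tissues became 187 with DESeq2, 10 without a filter, 0 with mouse as a block and 0 to 12 with 1 library left out. With at least 10 counts in every library, fewer genes were tested and the calls between tissues were 6715 on the CS diet and 6820 on the PS diet, in place of 11873 and 12154. Of the 11873 and 12154 calls of the main fit, 55.2% and 55.3% were higher in the lung. Of the calls made with library totals, 83.8% were higher in the lung on each diet.

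The replicate numbers did not pair the samples within a tissue, with correlations of same-numbered deviations of -0.34 to -0.03 in the liver and -0.01 to 0.10 in the lung. With the replicate block Sc5d in the lung was at -0.68 (edgeR adjusted p = 0.0364) and Dhcr7 in the liver at 0.67 (edgeR adjusted p = 1.00). Of the single genes compared within a tissue, the block changed the call of Lbr in the lung alone, at -1.21 (edgeR adjusted p = 0.0435). Dhcr7 had the fewest reads of the 3 genes, so depth limited its values most.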

Other observations

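Ebp, Sc5d and Dhcr7 have relatives by protein family, and these were read in the same fits. Tmem97, a sterol-regulated relative of Ebp known as the sigma-2 receptor, stood at 36.6 ± 7.50 FPKM (SD, n = 4) in CS livers and 53.3 ± 6.98 FPKM (SD, n = 5) in PS livers, apart by 0.55 on the log2 scale (edgeR adjusted p = 0.463). Ebpl, the closest relative of Ebp by name, was at 0.22, and Tm6sf2, which takes part in lipoprotein export from the liver, at 0.35, with edgeR adjusted p-values of 0.925 and 0.807. In the lungs Tm6sf1 fell by 0.88 on the log2 scale (edgeR adjusted p = 0.0407), but its exons overlap Hdgfl3 on the opposite strand over 1220 bases, so its reads are uncertain. Its call was lost without CS replicate 1, 2 or 3 or PS replicate 2 (edgeR adjusted p = 0.101 to 0.152), with limma on FPKM, with the GC trend removed and with the mitochondrial covariate. The log2 difference was -1.02 to -0.77 with 1 lung left out and -0.95 to -0.55 in the other alternatives. Tmem97 (-0.25), Ebpl (-0.04) and Tm6sf2 (0.66) did not pass in the lungs.

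Lbr and Tm7sf2 share the family of Dhcr7 and reduce the double bond at carbon C14. Tm7sf2 held 961 to 2896 reads per liver and 85 to 303 per lung, while Lbr held 9 to 100 per liver and 318 to 1611 per lung. In the lungs the log2 difference of Lbr was -1.10 (edgeR adjusted p = 0.0628), beside the rise of Tm7sf2. In the livers the values were 0.15 for Lbr and 0.39 for Tm7sf2, with edgeR adjusted p-values of 0.983 and 0.761. Ch25h, a hydroxylase of the same superfamily as Sc5d, held at most 5 reads per liver and was not tested there. Its value in the lungs was 0.62 (edgeR adjusted p = 0.252). Faxdc2 was not found under that symbol.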
